A study of Mus musculus with 4 samples.

Results

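The genes described here are the Notch receptors Notch1, Notch2 and Notch3, the ligands Dll1, Dll3, Jag1 and Jag2, the feedback gene Nrarp and the Fringe genes Lfng and Mfng. They were taken by symbol from the deposited count table of mouse forebrain at E10.5 (the embryonic day). All 10 were found among its 24982 genes, and all 10 passed the filter on low counts. The 2 conditional knockout (cKO) libraries carried the genotype Sox1 cre+/-; Chd7 f/f, in which a Cre recombinase from the Sox1 locus by name acts on 2 floxed alleles of the chromatin remodeller gene Chd7. The 2 control libraries were Chd7 +/f, with a single floxed allele, and no Cre is named for them, so an effect of the Cre allele cannot be told apart from that of Chd7 loss. Each library was made from the polyA RNA of micro-dissected forebrain, and whether that was 1 embryo or several pooled is not in the labels. The p-values therefore cover the spread between libraries, which may be technical.

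Notch signalling passes between touching cells. A Delta or Jagged ligand on one cell binds a Notch receptor on its neighbour, the receptor is cleaved, and its intracellular part joins the DNA-binding protein RBPJ in the nucleus and switches on repressor genes of the Hes and Hey families. In the embryonic brain the pathway is known for keeping neighbours of a newborn neuron in the progenitor state, with proneural factors switching on Delta ligands. Fringe enzymes add sugars to Notch receptors and shift their preference between Delta and Jagged ligands, and NRARP, itself switched on by Notch, dampens the pathway.

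Total counts per library ran from 16581252 to 17096522. Levels are given in CPM, counts scaled to a common library size after TMM correction. Each log2 fold change sets cKO over control and has its standard error (SE). Chd7 itself stood at 136 and 132 CPM in the 2 cKO libraries, against 339 and 345 CPM in the control libraries. Its cKO level was 39.1% of the control level (log2 fold change −1.35, SE 0.05, edgeR adjusted p = 8.7e-05). The count covers all exons, including any outside the deleted part. Sox1, a progenitor transcription factor gene and the Cre locus by name, measured 139 and 147 CPM in cKO forebrain, against 177 and 173 CPM in control forebrain (log2 fold change −0.29, SE 0.05, edgeR adjusted p = 0.031). The Sox1 call was lost without control replicate 1 (0.099), cKO replicate 1 (0.14) or cKO replicate 2 (0.083).

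The proximal promoters of the genes the results turn on are shown to let their make-up be read beside the values. Each is the 250 bases before the transcription start in RefSeq (GRCm38.p6), written 5′ to 3′ on the gene's strand. Capitals mark TGGGAA, the core of the RBPJ binding motif, with 1 base more where it read GTGGGAA, and the E-box CAGCTG, a sequence bound by proneural bHLH factors; both strands were searched, so a match on the other strand reads TTCCCA. The 4 genes that passed the test come first, followed by Dll1 and Lfng, which hold matches.
Notch1 (chr2:26503823-26504072, - strand): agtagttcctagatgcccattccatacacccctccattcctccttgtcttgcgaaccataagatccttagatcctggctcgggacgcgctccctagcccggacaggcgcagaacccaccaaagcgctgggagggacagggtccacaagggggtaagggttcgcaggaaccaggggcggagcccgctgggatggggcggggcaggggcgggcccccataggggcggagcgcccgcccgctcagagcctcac
Notch2 (chr3:98013288-98013537, + strand): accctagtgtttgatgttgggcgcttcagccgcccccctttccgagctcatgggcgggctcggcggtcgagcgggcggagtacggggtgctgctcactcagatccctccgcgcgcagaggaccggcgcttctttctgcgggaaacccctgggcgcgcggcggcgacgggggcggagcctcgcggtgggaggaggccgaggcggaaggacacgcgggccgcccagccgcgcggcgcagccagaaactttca
Notch3 (chr17:32166891-32167140, - strand): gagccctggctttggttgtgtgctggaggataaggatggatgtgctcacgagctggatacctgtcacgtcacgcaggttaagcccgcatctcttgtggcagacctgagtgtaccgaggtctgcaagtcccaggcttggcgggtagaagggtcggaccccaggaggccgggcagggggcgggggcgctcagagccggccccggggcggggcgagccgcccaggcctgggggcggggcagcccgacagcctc
Nrarp (chr2:25180508-25180757, + strand): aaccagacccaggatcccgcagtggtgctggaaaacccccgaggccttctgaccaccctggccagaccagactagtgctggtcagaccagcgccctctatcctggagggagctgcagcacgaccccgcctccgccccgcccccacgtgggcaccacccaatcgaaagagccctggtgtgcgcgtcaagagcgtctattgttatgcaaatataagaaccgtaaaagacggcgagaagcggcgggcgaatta
Dll1 (chr17:15376933-15377182, - strand): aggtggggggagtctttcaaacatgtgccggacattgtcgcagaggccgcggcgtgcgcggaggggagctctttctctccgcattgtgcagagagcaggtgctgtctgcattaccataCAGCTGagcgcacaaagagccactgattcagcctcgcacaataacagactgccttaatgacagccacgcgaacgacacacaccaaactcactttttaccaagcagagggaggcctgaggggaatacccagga
Lfng (chr5:140607091-140607340, + strand): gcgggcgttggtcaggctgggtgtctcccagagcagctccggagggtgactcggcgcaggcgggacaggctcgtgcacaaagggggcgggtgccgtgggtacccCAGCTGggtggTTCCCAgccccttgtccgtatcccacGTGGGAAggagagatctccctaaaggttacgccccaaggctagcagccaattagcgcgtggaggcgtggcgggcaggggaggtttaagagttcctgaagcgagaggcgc
The promoter table held 9 of the 10 genes with 10 start sites, a second one for Dll1 included. The RBPJ core was found in 1 of these 10 windows, that of Lfng, which held it at 108 and 135 bases before the start, against 21.6% of all 32851 promoter windows. The extended form GTGGGAA, which overlaps the core, was in the same window and in 5.42% of all. The E-box CAGCTG was found in 4 windows, those of Dll1, Dll3, Jag1 and Lfng, against 13.0% of all windows. It lay 132 bases before the start of Dll1, 7 before that of Dll3, 82 before that of Jag1 and 146 before that of Lfng. All 10 windows held more CG dinucleotides than the median of 6 over all windows, with 10 (Dll3) to 54 (Jag2) per window. The Dll3 window held more than 62.2% of all windows did. The windows of Notch1, Notch3 and Nrarp, which fell, and of Notch2, which rose, held neither motif; they held 16, 17, 18 and 34 CG dinucleotides.

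In the cKO forebrain 3 of the 10 genes fell and 1 rose. Notch1, Notch3 and Nrarp were lower, at 70.5%, 83.7% and 77.9% of their control levels, and Notch2 was higher, at 128% of its control level. Over all 14235 genes tested, 3.70% were called, 2.13% lower and 1.57% higher; a call here is a Benjamini-Hochberg adjusted p below 0.05 in edgeR's quasi-likelihood test. DESeq2's Wald test called 6 of the 10 (4.57% of the genes it gave an adjusted p), and the authors' deposited table called 5 (4.48% of its genes). The median log2 fold change of the 10 genes was −0.29, against −0.00028 over all genes tested, and 8 of the 10 had a negative value. The 10 genes were chosen with earlier results of these data known, so these shares and medians describe them and test nothing about the set. In 5 of them both cKO libraries lay below both control libraries, and in 1 both lay above; over all genes tested, 24.0% and 24.3% did so. The 4 calls were made in the fit of all 4 libraries. Without cKO replicate 1, and likewise without cKO replicate 2, none of the 10 genes was called.

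**Figure D1:**
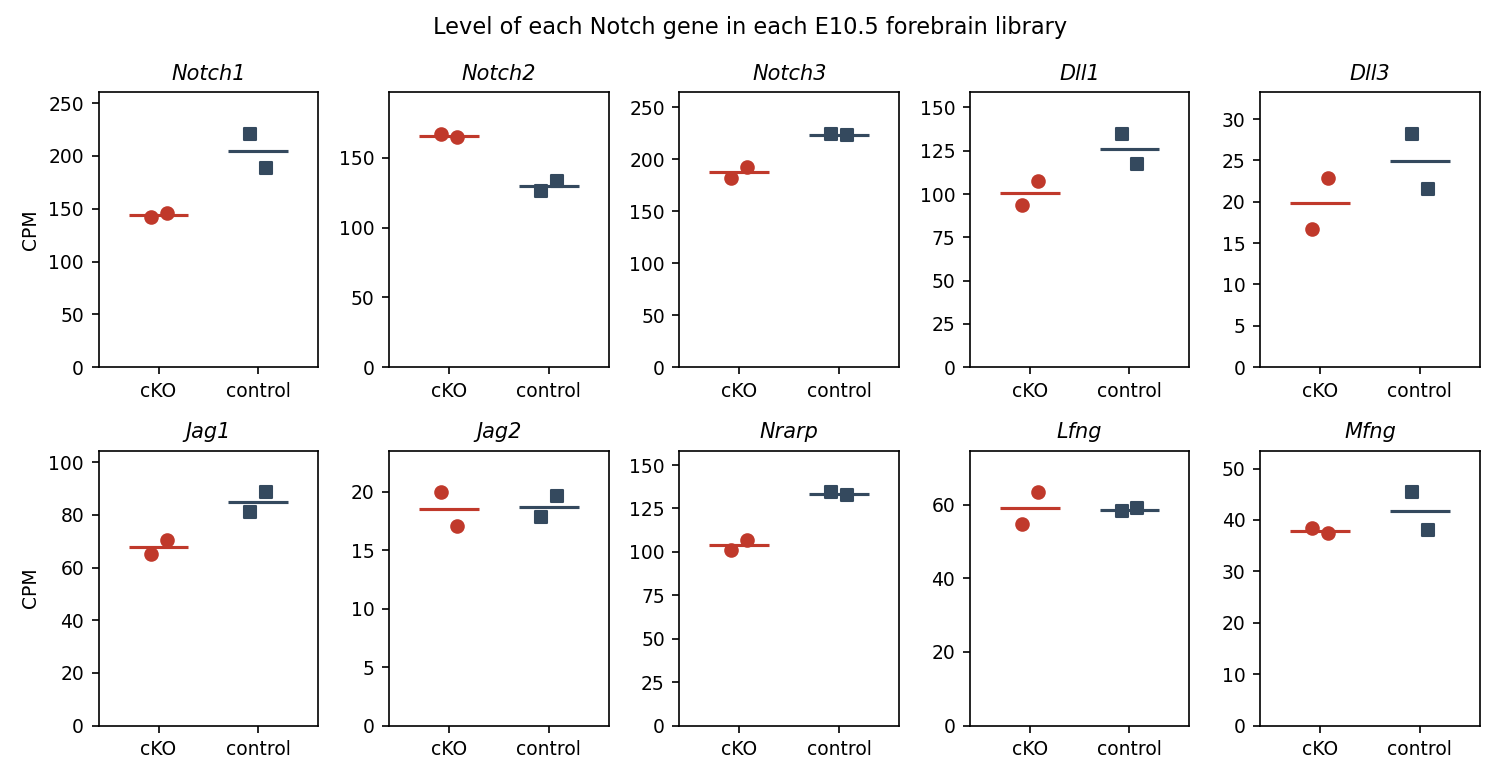
CPM (vertical axes, from 0) of each of the 10 genes in the 2 cKO libraries (red circles) and the 2 control libraries (dark squares); horizontal lines are group means. Notch1, Notch3, Nrarp, Dll1 and Jag1 have both cKO points below both control points, and Notch2 has both above.

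The receptors moved in opposite directions. Notch1 (RefSeq, GRCm38.p6 chromosome 2, 26457902 to 26503822), the main receptor of early neural progenitors, had 142 and 146 CPM in the cKO libraries, against 221 and 188 CPM in the control libraries. The cKO libraries lay close together and below both controls, which differed from each other more. Notch1 averaged 144 ± 2.6 CPM in cKO and 204 ± 23 CPM in control forebrain (SD, n = 2 each), or −0.51 on the log2 scale (SE 0.08, edgeR adjusted p = 0.017). Leaving out cKO replicate 1 ended the call (edgeR adjusted p = 0.055), as did leaving out cKO replicate 2 (0.064).

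Notch2 (chromosome 3, 98013538 to 98150367), a receptor expressed in the roof plate and choroid plexus as well as in progenitors, had 167 and 165 CPM in the cKO libraries, against 126 and 134 CPM in the control libraries. Both cKO values stood above both control values. The mean was 166 ± 1.6 CPM in cKO and 130 ± 5.4 CPM in control forebrain (SD, n = 2 each), or 0.35 on the log2 scale (SE 0.05, edgeR adjusted p = 0.015). This call too was lost without cKO replicate 1 (edgeR adjusted p = 0.063) or cKO replicate 2 (0.074).

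Notch3 (chromosome 17, 32120820 to 32166896), a receptor of progenitors and of the mural cells around vessels, had 182 and 192 CPM in the cKO libraries, against 224 and 223 CPM in the control libraries. The control pair was nearly equal and lay above both cKO libraries. The means were 187 ± 7.1 CPM in cKO and 224 ± 0.90 CPM in control forebrain (SD, n = 2 each), or −0.26 on the log2 scale (SE 0.05, edgeR adjusted p = 0.037). This was the smallest of the 4 called changes, and its call was lost in each fit without a library, with an edgeR adjusted p of 0.11 and 0.051 without control replicates 1 and 2 and of 0.16 and 0.094 without cKO replicates 1 and 2.

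Because the ratio of 2 genes within a library does not depend on scaling, Notch2 was also set against Notch1 directly. Their count ratio was 1.17 and 1.13 in the cKO libraries, against 0.570 and 0.710 in the control libraries. Notch2 reads outnumbered Notch1 reads in both cKO libraries, and the reverse held in both controls. The log2 ratio was 0.86 higher in cKO forebrain (a factor of 1.81). The exact permutation test gave p = 0.333, two-sided, which is the smallest value that 2 libraries against 2 allow; it was one of 4 pairs compared.

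Divided by exon length, Notch3 was the most abundant receptor in every library, at 22.7 and 24.0 CPM per kb in cKO and 28.0 and 27.8 CPM per kb in control libraries. Notch2 made up 29.7% and 28.5% of the summed length-scaled level of the 3 receptors in the cKO libraries, against 19.0% and 21.1% in the control libraries. Notch1 made up 27.9% in each cKO library, against 36.8% and 32.8% in the control libraries. The summed level of the 3 receptors was 53.6 and 55.1 CPM per kb in cKO libraries, below the 63.3 and 60.4 CPM per kb of the control libraries.

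**Figure D2:**
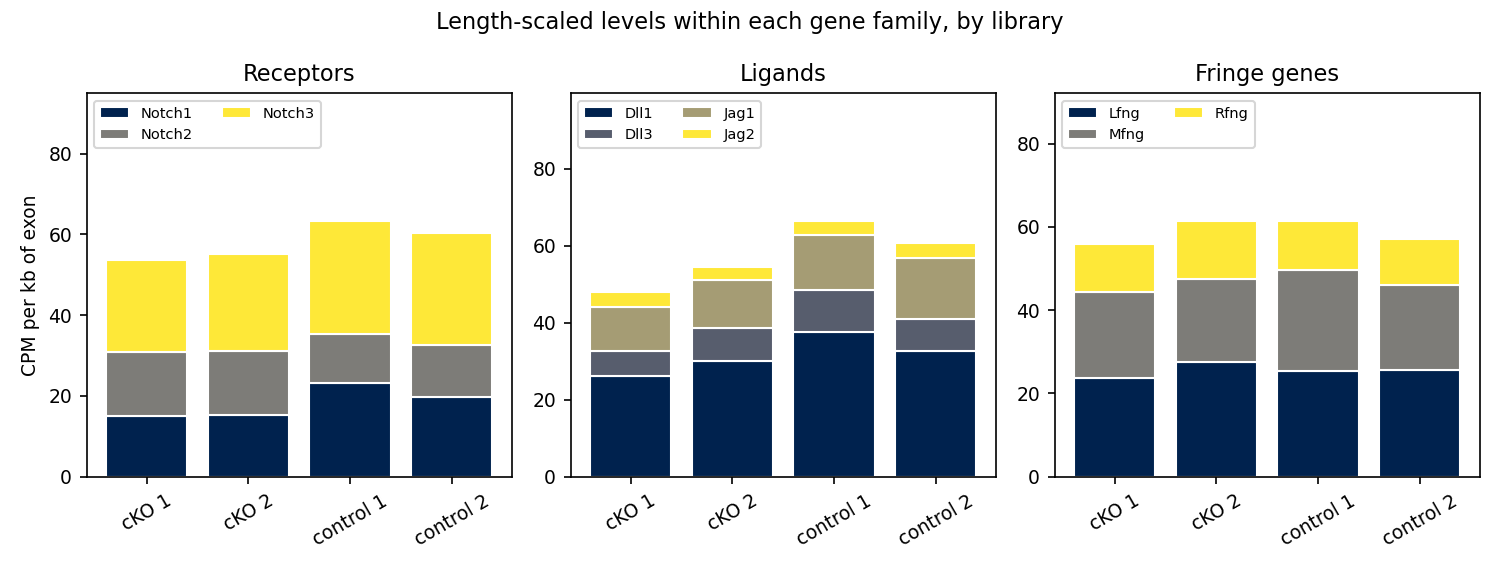
Stacked bars give the level in CPM per kb of exon (vertical axes, from 0) of each receptor, ligand and Fringe gene in each library, cKO libraries left of control libraries. The receptor bars of the cKO libraries are lower (53.6 and 55.1, against 63.3 and 60.4 CPM per kb) and hold a larger Notch2 segment; the Fringe bars overlap between groups.

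Among the ligands none passed the edgeR test, although Dll1 and Jag1 had both cKO libraries below both control libraries. Dll1 (chromosome 17, 15367354 to 15376932), the Delta ligand of newborn neurons and committed progenitors, had 93.8 and 107 CPM in the cKO libraries, against 135 and 117 CPM in the control libraries. The 2 groups did not overlap, and the means were 101 ± 9.6 CPM in cKO and 126 ± 12 CPM in control forebrain (SD, n = 2 each). The log2 fold change was −0.33 (SE 0.09, edgeR adjusted p = 0.10). It was under the threshold without control replicate 2 (edgeR adjusted p = 0.022), with the DESeq2 Wald test (0.044) and in the authors' deposited table (0.039).

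Jag1 (chromosome 2, 137081451 to 137116520), a Jagged ligand of progenitors and vessels, had 65.1 and 70.3 CPM in the cKO libraries, against 81.2 and 88.5 CPM in the control libraries. The groups did not overlap, and the log2 fold change was −0.33 (SE 0.07, edgeR adjusted p = 0.054). DESeq2 placed it just under the threshold (Wald test, adjusted p = 0.048), and the authors' deposited table just over it (0.054).

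Dll3 (chromosome 7, 28293555 to 28301785), a Delta relative that acts within the cell that makes it and restrains Notch, had 16.8 and 22.8 CPM in the cKO libraries, against 28.2 and 21.5 CPM in the control libraries. The groups overlapped, since cKO replicate 2 lay above control replicate 2. Its log2 fold change of −0.33 was as large as that of Dll1 and Jag1 but its SE was 0.18 (edgeR adjusted p = 0.42), and with a library left out it ran from −0.57 to −0.12. Jag2 (chromosome 12, 112907803 to 112929812), the other Jagged ligand, had 19.9 and 17.1 CPM in the cKO libraries, against 17.8 and 19.7 CPM in the control libraries, with overlapping groups. Its log2 fold change was −0.02 (SE 0.13, edgeR adjusted p = 0.97), and it turned to 0.056 without control replicate 2 and to 0.092 without cKO replicate 2.

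Length-scaled, Dll1 led the ligands in all 4 libraries and took 54.5% and 54.9% of the summed ligand level in the cKO libraries, against 56.7% and 54.1% in the control libraries. The Jag1 over Dll1 count ratio was 0.694 and 0.655 in the cKO libraries, against 0.603 and 0.754 in the control libraries, so the groups overlapped (exact permutation p = 1, two-sided). Dll3 over Dll1 was 0.179 and 0.213 in the cKO libraries, against 0.209 and 0.184 in the control libraries (exact permutation p = 1, two-sided).

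Neurog2, the proneural factor of the dorsal telencephalon, had 25.1 and 28.8 CPM in the cKO libraries, against 85.0 and 44.5 CPM in control libraries. Its log2 fold change was −1.26 (SE 0.27, edgeR adjusted p = 0.0504), with controls that lay far apart. It was −0.72 without control replicate 1 and −1.66 without control replicate 2. Neither DESeq2's Wald test (adjusted p = 0.10) nor limma-voom (0.098) called Neurog2. Of 7 other settings fitted to all 4 libraries, 1 called Neurog2, that with no filter beyond a total count above 0 (edgeR adjusted p = 0.046). Neurog1, its relative, had 0.12 on the log2 scale (SE 0.12, edgeR adjusted p = 0.66). Control replicate 1, the higher of the controls for Neurog2, was also the higher control for Dll1, Dll3 and Notch1; the part of this in their values was not tested.

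Nrarp (chromosome 2, 25180758 to 25183339), a small ankyrin-repeat protein gene switched on by Notch, had 101 and 107 CPM in the cKO libraries, against 134 and 133 CPM in the control libraries. The control libraries were nearly equal and above both cKO libraries. The means were 104 ± 4.3 CPM in cKO and 134 ± 0.91 CPM in control forebrain (SD, n = 2 each), or −0.36 on the log2 scale (SE 0.05, edgeR adjusted p = 0.017). Without cKO replicate 1 the adjusted p was 0.083, and without cKO replicate 2 it was 0.052 (edgeR). In GENCODE M21, 79.4% of the Nrarp exon bases lie in exons of the opposite-strand gene Gm38287. The counts were made without strand, so Nrarp reads there cannot be told apart from antisense reads. The share was 17.4% for Dll1, 10.2% and 4.36% for Notch1 with its 2 partners and 6.09% for Notch3, all on the opposite strand, and 5.15% for Notch2 on the same strand. Of these partners only 0610009E02Rik, at Notch1, is a gene of the count table, with 7 and 8 reads in the cKO libraries, against 11 and 8 in the control libraries.

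The Hes and Hey repressor genes held both signs, 3 positive and 4 negative, against 7110 positive and 7125 negative over all genes tested. Of 7 tested Hes and Hey genes, 0 passed the edgeR test in either direction. At an unadjusted p under 0.05, 3 were lower and 2 higher; over all genes tested 17.5% were under that level, 9.10% lower and 8.43% higher. DESeq2 and limma-voom called 0 of the 7. Hes5, a direct Notch target in neural progenitors, had 41.7 and 53.4 CPM in the cKO libraries, against 62.3 and 61.6 CPM in the control libraries (log2 fold change −0.38, SE 0.11, edgeR adjusted p = 0.13). Hes1, a target that other signals also drive, had 60.1 and 54.0 CPM in the cKO libraries, against 46.4 and 46.1 CPM in the control libraries (0.30, SE 0.08, edgeR adjusted p = 0.089). The groups did not overlap for either gene, and the differences of Hes5 and Hes1 had opposite signs. Over all genes tested, both cKO libraries lay below both controls in 24.0% and above in 24.3%. Hey1 and Heyl, a related repressor pair, had log2 fold changes of −0.40 (SE 0.11, edgeR adjusted p = 0.10) and −0.66 (SE 0.17, edgeR adjusted p = 0.087). Hes3 was named after its value was seen, as the gene with the largest difference among the 7. It had 48 and 55 counts in the cKO libraries, against 25 and 22 counts in the control libraries (log2 fold change 1.13, SE 0.32, edgeR adjusted p = 0.12). Hes5 was called without cKO replicate 2 (edgeR adjusted p = 0.035) and Hey1 without control replicate 2 (0.020).

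The Fringe genes showed no difference larger than the spread between libraries. Lfng (chromosome 5, 140607341 to 140615545), lunatic fringe, had 54.7 and 63.3 CPM in the cKO libraries, against 58.2 and 59.0 CPM in the control libraries; the cKO pair spanned both controls. Its log2 fold change was 0.01 (SE 0.08, edgeR adjusted p = 0.97), and it ran from −0.10 to 0.11 when a library was left out. Mfng (chromosome 15, 78755882 to 78773516), manic fringe, had 38.4 and 37.5 CPM in the cKO libraries, against 45.4 and 38.0 CPM in the control libraries, again with overlap (log2 fold change −0.13, SE 0.10, edgeR adjusted p = 0.56). The third Fringe gene, Rfng, had 24.7 and 29.2 CPM in the cKO libraries, against 24.9 and 23.4 CPM in the control libraries (0.16, SE 0.12, edgeR adjusted p = 0.55). The Mfng over Lfng count ratio was 0.702 and 0.593 in the cKO libraries, against 0.779 and 0.643 in the control libraries (exact permutation p = 0.667, two-sided). The summed length-scaled level of the 3 Fringe genes was 56.0 and 61.3 CPM per kb in the cKO libraries, against 61.3 and 57.0 CPM per kb in the control libraries.

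**Figure D3:**
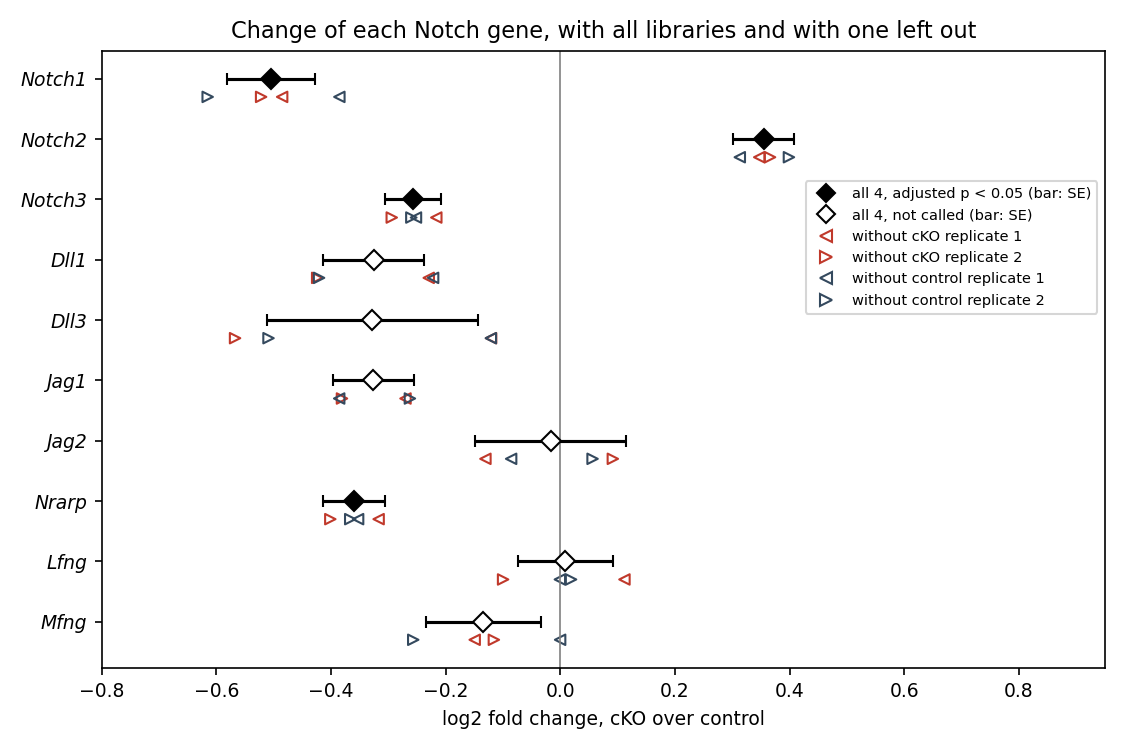
Diamonds give the log2 fold change of each gene, cKO over control (horizontal axis), with its SE as a bar, filled where the adjusted p was under 0.05; triangles give the value with 1 library left out. Notch1, Notch3 and Nrarp lie left of 0 and Notch2 right of 0 in every fit, while Jag2 and Lfng fall on both sides. The uncalled Dll1, Dll3, Jag1 and Mfng also stay left of 0, Mfng only just (−0.00026 without control replicate 1).

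Set side by side per length, the order of the 10 genes in cKO forebrain was Nrarp (mean 40.3 CPM per kb), Dll1 (28.1), Lfng (25.6), Notch3 (23.4), Mfng (20.3), Notch2 (15.8), Notch1 (15.2), Jag1 (12.1), Dll3 (7.56) and Jag2 (3.63). In control forebrain it was Nrarp (51.7 CPM per kb), Dll1 (35.2), Notch3 (27.9), Lfng (25.4), Mfng (22.3), Notch1 (21.6), Jag1 (15.1), Notch2 (12.4), Dll3 (9.50) and Jag2 (3.67). Among neighbours in this order, Dll1 and Lfng overlapped in the cKO libraries, as did Lfng and Notch3, and Mfng and Notch1 overlapped in the control libraries. Notch2 stood above Notch1 in both cKO libraries and below Notch1 and Jag1 in both control libraries. The lengths are unions of GENCODE exons, so the distance between 2 genes depends on which exons are in use.

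Few of the other pathway genes passed the test. Of 55 tested genes outside the 10, with roles from glycosylation to the nuclear complex, 1 was lower and 0 were higher (1.82%, against 3.70% of all genes), and their median log2 fold change was −0.03. At an unadjusted p under 0.05, 8 of the 55 were lower and 5 higher, against 9.10% and 8.43% of all genes, and their log2 fold changes ran from −1.30 to 1.19. DESeq2 and limma-voom also called 1 lower and 0 higher. In each it was Spen, which encodes a corepressor that binds RBPJ. It had 128 and 133 CPM in the cKO libraries, against 157 and 159 CPM in the control libraries, and fell by 0.28 on the log2 scale (SE 0.05, edgeR adjusted p = 0.031). The call was lost without control replicate 1 (edgeR adjusted p = 0.072), cKO replicate 1 (0.14) or cKO replicate 2 (0.12). Rbpj, the DNA-binding partner of the cleaved receptor, averaged 156 ± 2.0 CPM in cKO and 171 ± 7.6 CPM in control forebrain (SD, n = 2 each; log2 fold change −0.13, SE 0.05, edgeR adjusted p = 0.27).

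Over all genes tested 3.70% were called, so lists as short as the next ones often hold no call. None of the 10 tested genes of receptor cleavage was called, and their values ran from −0.10 to 0.27. The lowest p was that of Ncstn, a γ-secretase subunit gene (log2 fold change 0.15, SE 0.08, edgeR adjusted p = 0.37), followed by the sheddase gene Adam17 (0.10, SE 0.06, 0.44). None of 6 ligand endocytosis genes was called; Mib2 (−0.17, SE 0.11) and Neurl1b (−0.27, SE 0.30), E3 ligase genes, had edgeR adjusted p of 0.46 and 0.72. None of 7 glycosyltransferase genes was called, among them Poglut1, which adds glucose to Notch repeats (−0.17, SE 0.06, edgeR adjusted p = 0.21), and Gxylt2, at a mean of 1.98 CPM in cKO and 0.861 CPM in control forebrain (1.19, SE 0.48, edgeR adjusted p = 0.26). None of 10 trafficking and turnover genes was called; the Deltex genes Dtx1 (−1.30, SE 0.41) and Dtx4 (−0.13, SE 0.06) had edgeR adjusted p of 0.15 and 0.35.

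**Figure D4:**
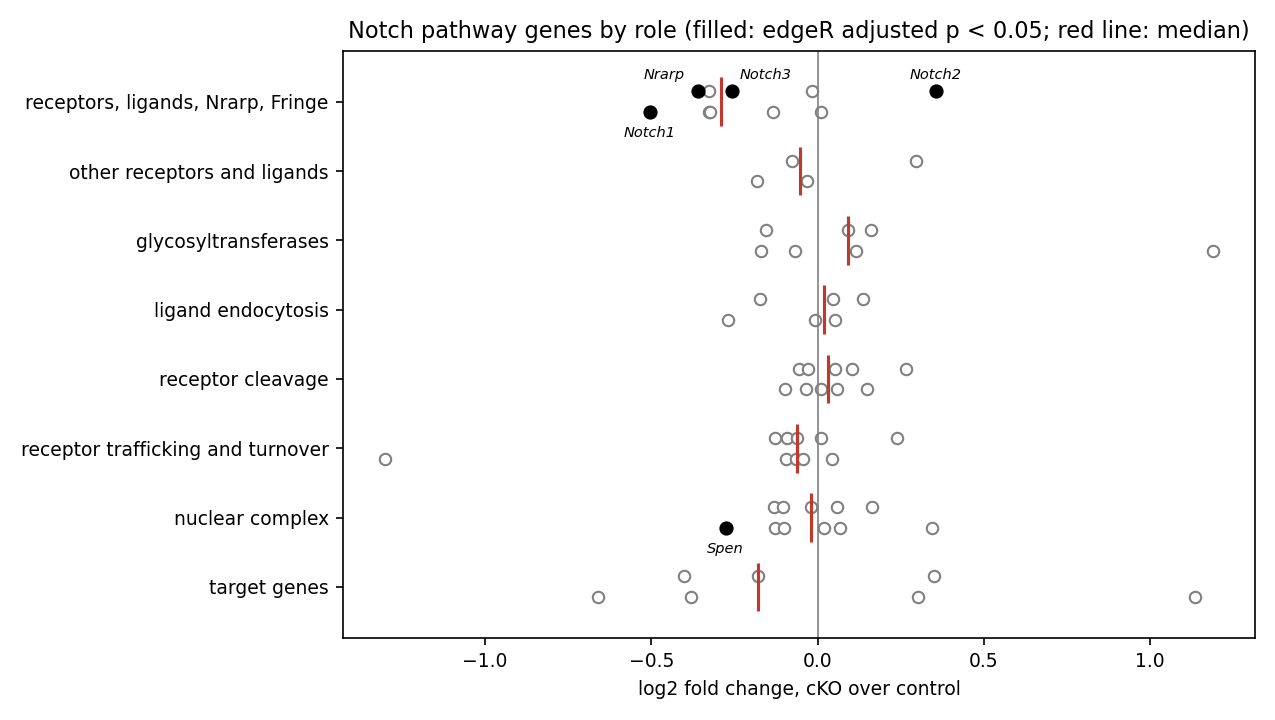
Each point is the log2 fold change, cKO over control (horizontal axis), of a tested gene, in rows by role; filled points passed the test, open points did not, and red lines are medians. The top row holds 4 filled points and lies mostly left of 0 (median −0.29), and in the rows below it only Spen is filled.

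Several members are also expressed outside neural cells, and in bulk tissue fewer cells of a type and less RNA per cell cannot be told apart. Of 18 endothelial markers, 0 passed in edgeR, DESeq2 or limma-voom. At an unadjusted p under 0.05 in edgeR, 9 were lower and 1 higher, against 9.10% and 8.43% of all genes tested. In 13 both cKO libraries lay below both controls and in 2 above, against 24.0% and 24.3% of all genes tested. The summed level of the 18 markers was 395 to 398 CPM in cKO libraries, against 455 to 461 CPM in control libraries. None of them was at 0 in every library. Kdr and Cdh5, endothelial receptor and junction genes, had log2 fold changes of −0.20 (SE 0.05, edgeR adjusted p = 0.11) and −0.34 (SE 0.08, 0.058). The endothelial receptor Notch4 had 12.4 and 13.8 CPM in cKO libraries, against 15.2 and 14.6 CPM in control libraries (−0.18, SE 0.14, edgeR adjusted p = 0.55). The endothelial ligand Dll4 had 7.17 and 8.52 CPM in cKO libraries, against 6.66 and 6.12 CPM in control libraries (0.30, SE 0.19, edgeR adjusted p = 0.49). The part of vessel cells in the values of Notch1, Notch3 and Jag1 was not tested.

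Among 16 neuronal genes 4 fell and 0 rose, with a summed level of 685 to 713 CPM in cKO libraries, against 970 to 1170 CPM in control libraries; Tubb3, neuronal tubulin, fell by 0.66 (SE 0.09, edgeR adjusted p = 0.013), and Map2 had −0.65 (SE 0.14, 0.054). Among 11 progenitor genes 5 fell and 0 rose (3755 to 3841 CPM in cKO, against 4414 to 4904 CPM in control libraries). The 5 included Sox1, the Cre locus by name, and Hmga2, which averaged 852 CPM in cKO and 1225 CPM in control forebrain. Sox2 (−0.09, edgeR adjusted p = 0.66), Nes (−0.02, 0.91) and Slc1a3 (−0.0036, 0.99) were not called. Of 9 tested forebrain genes 3 were lower and 0 higher (788 to 813 CPM in cKO, against 932 to 1118 CPM in control libraries). Of 11 tested erythroid genes 7 were lower and 0 higher (2093 to 2159 CPM in cKO, against 3138 to 3357 CPM in control libraries). Across all genes tested, 2.13% were called lower and 1.57% higher. Of the erythroid genes, the adult globins Hba-a1, Hba-a2, Hbb-bs and Hbb-bt were at 0 counts in every library. The most abundant were the embryonic globins Hbb-y (−0.70, SE 0.05, edgeR adjusted p = 0.0014) and Hbb-bh1 (−0.67, SE 0.06, 0.0031). None of 16 mural and mesenchyme genes (413 to 639 CPM in cKO, against 580 to 671 CPM in control libraries), 9 surface ectoderm genes (60.2 to 87.1, against 19.9 to 72.8 CPM) and 8 ventral midline genes (21.6 to 83.2, against 33.5 to 86.2 CPM) was called in either direction. At an unadjusted p under 0.05 the mural list had 4 lower, the ectoderm list 1 higher and the midline list 1 lower gene. The shares of all genes tested at that level were 9.10% lower and 8.43% higher. DESeq2 called 1 gene in each of these 3 lists, and limma-voom 1 in each of the first 2. Col1a1 and Col1a2, collagen genes of mesenchyme, had log2 fold changes of −0.55 (SE 0.22, edgeR adjusted p = 0.26) and −0.13 (SE 0.17, 0.76). Col1a1 had −1.04 without cKO replicate 1, where it was called (edgeR adjusted p = 0.0015), and −0.19 without cKO replicate 2; Col1a2 had −0.47 (0.045, called) and 0.15 in these fits. The part of these lists in the values of the 10 genes was not tested.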

How the data were processed

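RNA-seq was analysed in 4 libraries, grouped by genotype as 2 cKO and 2 control. The deposited table holds raw counts of paired-end reads over exons per gene, counted by featureCounts 2.0.1 with no strand option against mm10 (GRCm38) RefSeq genes, per the file headers. The submitters' processing notes also name HISAT2 and DESeq2, without versions. A comparison table that the authors deposited gives log2 fold changes with log2-scale errors and p-values with adjusted p-values, used where it is named. It also holds a Wald score and normalized signal per library from the authors, which were not used. No column was left without a sample (0).

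Genes were kept by filterByExpr (minimum count 10), scaled by TMM and tested with edgeR 4.0.16 (R 4.3.3; glmQLFit and glmQLFTest, no covariate, Benjamini-Hochberg over 14235 genes); an adjusted p under 0.05 was called. Precision rests on totals of 16581252 to 17096522 counts and an edgeR common BCV (spread between replicates) of 0.0785. Replicates differed beyond sampling noise (chi-square per degree of freedom 5.37 for control, 4.52 for cKO). SE is the log2 fold change over the root of F. Exon lengths are unions over GENCODE M21 basic transcripts. The edgeR step was tested on simulated data. Members and lists were chosen with earlier results of these data known. Named genes were the 10, Chd7, Sox1, 10 fixed pathway and proneural genes, called pathway genes or else the 2 of lowest p per list, and the 2 most abundant genes of 4 marker lists; 3 list symbols were not matched. A few results under this rule and the counts that rest on them are left out of the text. Alternatives were other scalings and filters, the DESeq2 1.42.0 Wald test, limma-voom 3.58.1, a replicate block and each library left out. Plots were drawn with matplotlib 3.10.9.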

Additional observations from a re-analysis of the deposited data

How the results depend on the processing

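Under RLE or upper-quartile scaling, no filter, a mean of at least 5 CPM and limma-voom, the 10 genes kept 3 lower and 1 higher calls, and no sign changed. The DESeq2 Wald test called 5 lower, adding Dll1 and Jag1. With a library left out, the counts ran from 0 to 3 lower and from 0 to 1 higher; log2 fold changes ran from −0.13 to 0.092 for Jag2, −0.10 to 0.11 for Lfng and −0.47 to 0.15 for Col1a2, each with a change of sign. Of 40 such values of the 10 genes, 4 changed sign, 10 lost and 1 gained a call; such a fit has fewer samples and assumes that the lone library varies like the others. The log2 Notch2 over Notch1 ratio stayed between 0.70 and 1.01. Over all genes, 80 to 351 were higher and 131 to 418 lower with a library left out, and other pathway genes had 0 to 3 lower. The labels do not say whether same-numbered libraries share a source, and these did not deviate together (r = −0.05 across genes). With the replicate block 137 genes were higher and 211 lower. The calls of Notch3 (adjusted p = 0.066, edgeR), Spen (0.059) and Sox1 (0.065) were lost in that fit, leaving 0 called pathway genes outside the 10. Map2 gained a call there (edgeR adjusted p = 0.034). The cause was not tested.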
